A study of Mus musculus with 9 samples.

Results

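The late step after irradiation of the mouse submandibular gland is the interval from 60 to 90 days after a single labelled dose of 10 Gy. It was read from bulk RNA sequencing. The libraries were chosen by the time point in their titles, which gave 3 libraries of 60 days and 3 of 90 days, 6 of the 9 libraries in the series. The mice of both groups carried the label wild type (WT) and both groups had received 10 Gy, so no unirradiated gland entered the comparison. The 3 libraries of 30 days, of the same genotype and dose, contributed to the estimate of spread and are given beside the members as a reference. Strain, sex and age at irradiation are not given in the labels, and time after irradiation and age of the mice cannot be told apart. The labels number the samples but do not say whether each number is a separate animal, so p-values measure only the spread between these samples, which may be technical.

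The submandibular gland makes saliva in acinar cells, whose dense secretory machinery is maintained by the transcription factor Bhlha15 (Mist1). Muscarinic and adrenergic receptors on these cells raise calcium and cyclic AMP, which open ion channels and release stored protein. Ducts modify the fluid, blood vessels supply it, and resident lymphocytes, plasma cells and macrophages populate the stroma. Radiation of the gland is known for a lasting loss of fluid secretion, with changes in acinar cells, vessels and immune cells.

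From 60 to 90 days, the 4 smallest adjusted p belonged to signalling genes, which moved in opposite directions. The ERK phosphatase gene Dusp6 rose 2.41-fold, while Dusp5, Dusp1 and the matricellular gene Ccn1 fell. The endothelial genes Sox18 and Egfl7 rose, and so did the antigen presentation gene B2m and the interferon-induced GTPase genes Iigp1 and Tgtp2. Bhlha15 and the secretory gene Wfdc12 fell. Of 15224 genes tested with edgeR's quasi-likelihood test and Benjamini-Hochberg adjustment, 39 (0.256%) passed an adjusted p of 0.05, 14 higher at 90 days (0.092%) and 25 lower (0.164%). Without sample 2 of the 90-day group, Dusp1, Egfl7, B2m, Iigp1, Tgtp2 and Bhlha15 no longer passed. In all 39, the 3 values of 60 days and the 3 of 90 days did not overlap, as in 15.9% of all genes tested (8.30% higher at 90 days and 7.64% lower). At an unadjusted p under 0.05, 5.79% of the genes tested were higher and 4.97% lower, or 10.8% in either direction.

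**Figure D1:**
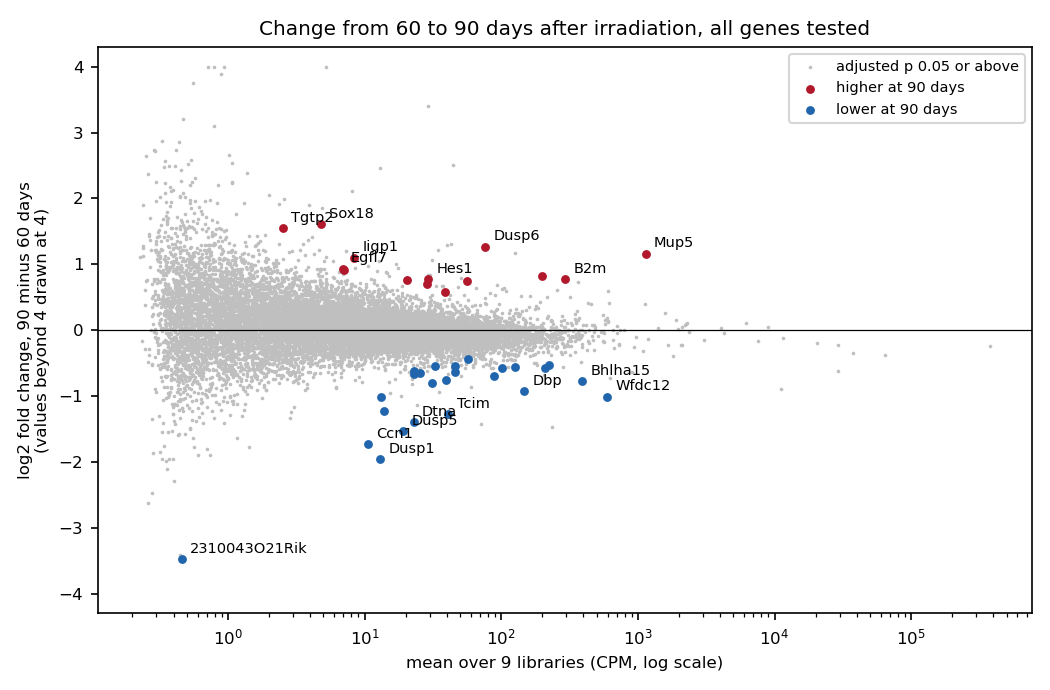
Log2 fold change from 60 to 90 days (vertical axis) against the mean level over 9 libraries in CPM on a log scale (horizontal axis), one point per gene. Red points are the 14 genes higher at 90 days, blue points the 25 lower, and grey points the genes that did not pass. Most changed genes lie within 2 on the log2 scale, with Dusp6, Sox18 and Tgtp2 among the rises and Dusp1, Ccn1 and Dusp5 among the falls.

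Library totals ran from 20410818 to 26065856 counts, and 3 counts corresponded to between 0.101 and 0.151 CPM. CPM here is the usual read count scaled to a common library total, after TMM scaling. TMM levels a trimmed mean, over genes, of the log ratios between libraries. The salivary mucin-like gene Mucl2 alone took 31.4% to 39.6% of the counts of a library. Scaling by library totals instead moved the middle of the 15224 log2 fold changes from 0.00 to 0.17, so changes below are relative to the median gene. It gave 28 calls, 19 higher and 9 lower. Acinar and duct markers fixed as a check of the tissue (Mucl2, Smgc, Aqp5, Bhlha15, Egf, Klk1 and Ren1) were present in the libraries.

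Sample 2 of the 90-day group stood apart from the other 90-day samples in genes of blood and lymphoid cells, and also in other lists. It was the highest 90-day library in 70.0% of pan-endothelial, 80.0% of pericyte, 77.3% of fibroblast and collagen and 77.8% of basal cell genes. In acinar transcription factors the share was 9.52%, and in fluid secretion genes 21.1%. Of 10 tested B and plasma cell genes, 9 were highest in that sample among the 90-day libraries, and so were 6 of 6 erythrocyte genes, against 34.3% of all genes tested. The summed level of the B and plasma cell genes was 135, 620 and 147 CPM in the 90-day samples 1, 2 and 3, against 51.2 to 62.3 CPM at 60 days. For the erythrocyte genes, the sums were 75.0, 230 and 105 CPM, against 44.0 to 72.9 CPM at 60 days. Without that sample, 16 genes passed the test, 7 higher and 9 lower, and 14 of the 39 genes were called again. A fit of the 6 libraries of 60 and 90 days alone gave 34 calls and kept 26 of the 39. Genes of lymph node stroma summed to 4.08, 12.2 and 7.58 CPM in the 90-day samples 1, 2 and 3, against 4.59 to 5.01 CPM at 60 days. The node chemokine Ccl21a had no count in any library, so it cannot set sample 2 apart. The part of the sample's blood, lymphoid and other cell content in the results was not tested.

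Among the MAP kinase phosphatases, 1 gene rose and 2 fell of 10 tested, and their median log2 fold change was 0.20, or 0.039 without 90-day sample 2. MAP kinase phosphatases remove the activating phosphates from ERK, JNK and p38 kinases. Several of them are themselves transcribed in response to those kinases, so their levels act as feedback. Dusp6 encodes a cytoplasmic phosphatase specific for ERK (chromosome 10, 99263231 to 99267489, GRCm38). It measured 34.7, 36.5 and 38.7 CPM at 60 days and 75.9, 102 and 86.9 CPM at 90 days. All 90-day values were above all 60-day values, and the gene rose by 1.27 ± 0.12 (log2, SE; edgeR adjusted p = 1.00e-05). At 30 days Dusp6 had measured 114, 97.6 and 101 CPM, and the difference of 90 from 30 days was -0.24 ± 0.11 (adjusted p = 0.299).

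Dusp5, the nuclear phosphatase of ERK (chromosome 19, 53529109 to 53542431), moved the other way. Its values were 31.5, 30.6 and 32.9 CPM at 60 days and 14.6, 9.76 and 8.13 CPM at 90 days. The groups did not overlap, and Dusp5 fell by 1.54 on the log2 scale (SE 0.16, edgeR adjusted p = 1.33e-04). Dusp1, a nuclear phosphatase that acts on p38 and JNK as well as ERK, measured 21.4, 19.1 and 38.8 CPM at 60 days and 8.29, 5.64 and 6.48 CPM at 90 days. The 60-day sample 3 was the highest, and without overlap Dusp1 fell by 1.96 on the log2 scale (SE 0.28, edgeR adjusted p = 0.0181). The Dusp1 call was lost without 90-day sample 2 (adjusted p = 0.131) or 3 (adjusted p = 0.0893) and under library-size scaling (adjusted p = 0.167). At 30 days, Dusp5 had measured 16.7, 14.9 and 14.1 CPM and Dusp1 3.97, 6.78 and 6.22 CPM, so for both genes the 60-day libraries were the highest of the 3 time points. Dusp7, a cytoplasmic ERK phosphatase (log2 fold change -0.41 ± 0.10, edgeR adjusted p = 0.102), and nuclear Dusp4 (0.89 ± 0.30, adjusted p = 0.320) did not pass.

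The windows before the start of the falling phosphatase genes are shown because each holds an element bound by a factor of stimulus-driven transcription. The element differs between the genes. In Dusp1 it is the cyclic AMP response element (CRE), TGACGTCA, bound by CREB. In Dusp5 it is a pair of adjoining CArG boxes, the element bound by serum response factor. Sequences are from RefSeq windows on GRCm38.p6, read 5′ to 3′ on the strand of the gene, with the matched element in capitals. The Dusp1 stretch (chr17:26508582-26508645, minus strand) lies 173 to 110 bases before the RefSeq start and inside an intron of a longer annotated Dusp1 transcript, and the Dusp5 stretch (chr19:53529033-53529108, plus strand) lies 112 to 37 bases before the start, opposite an antisense noncoding exon.
Dusp1: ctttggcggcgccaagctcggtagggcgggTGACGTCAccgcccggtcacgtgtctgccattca
Dusp5: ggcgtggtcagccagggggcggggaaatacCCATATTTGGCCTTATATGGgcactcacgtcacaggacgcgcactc

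In the 250 bases before the start, searched on both strands, the CRE was present in 2 of 9 phosphatase genes with a window, Dusp1 and Dusp8, and in 1.77% of all 27025 genes and 2.94% of the 11037 tested genes with a window. It was in 1 of 9 windows of genes that rose (Wsb1) and in 2 of 20 of genes that fell (Dusp1 and Slc25a25). The CArG box was present in 1 of the 9 phosphatase genes, in 1.62% of all genes and in 1.4% of the tested genes with a window. It was in 0 of 9 windows of genes that rose and in 1 of 20 of genes that fell (Dusp5). Dusp8, named after its values were seen, did not pass the test (adjusted p = 0.893). A match describes letters in the window and not a bound site.

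Other outputs of ERK signalling did not pass the test, although 18 of 21 tested had a positive log2 fold change (median 0.15, against 0.00 over all genes). Without 90-day sample 2, 14 of the 21 were positive (median 0.14). Spry1, an inhibitor of receptor tyrosine kinase signalling, measured 7.68, 6.69 and 6.34 CPM at 60 days and 10.0, 10.3 and 10.6 CPM at 90 days. These groups did not overlap, with a log2 fold change of 0.58 ± 0.15 (edgeR adjusted p = 0.141). The related inhibitors Spry4 (0.68 ± 0.29, adjusted p = 0.422) and Spred1 (0.29 ± 0.11, adjusted p = 0.338) and the early response gene Phlda1 (0.32 ± 0.10, adjusted p = 0.248) likewise did not overlap. Etv5, a transcription factor induced by FGF signalling, ran from 8.85 to 16.9 CPM at 60 days and from 13.2 to 29.3 CPM at 90 days, and these groups overlapped (1.00 ± 0.38, adjusted p = 0.427).

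Ccn1, a secreted matricellular protein whose gene responds to serum and to YAP (chromosome 3, 145646976 to 145649981), had the smallest adjusted p of all genes. It measured 21.1, 19.4 and 25.1 CPM at 60 days and 7.11, 6.74 and 5.82 CPM at 90 days. The 90-day level was 0.302 of the 60-day level, with no overlap, and Ccn1 fell by 1.73 on the log2 scale (SE 0.15, edgeR adjusted p = 8.51e-06). At 30 days it had been lower still, at 3.47, 3.51 and 3.43 CPM, and 90 days exceeded 30 days by 0.92 (adjusted p = 0.00439). Its relative Ccn2 ran from 12.7 to 18.9 CPM at 60 days and from 17.8 to 28.5 CPM at 90 days, with overlap (0.44 ± 0.23, adjusted p = 0.511). Of 21 tested CCN and YAP target genes, Ccn1 was the one that passed, and the median of the list was 0.01. Fjx1 (0.59 ± 0.39, adjusted p = 0.624) and Nt5e (0.35 ± 0.28, adjusted p = 0.704) had positive values that did not pass.

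**Figure D2:**
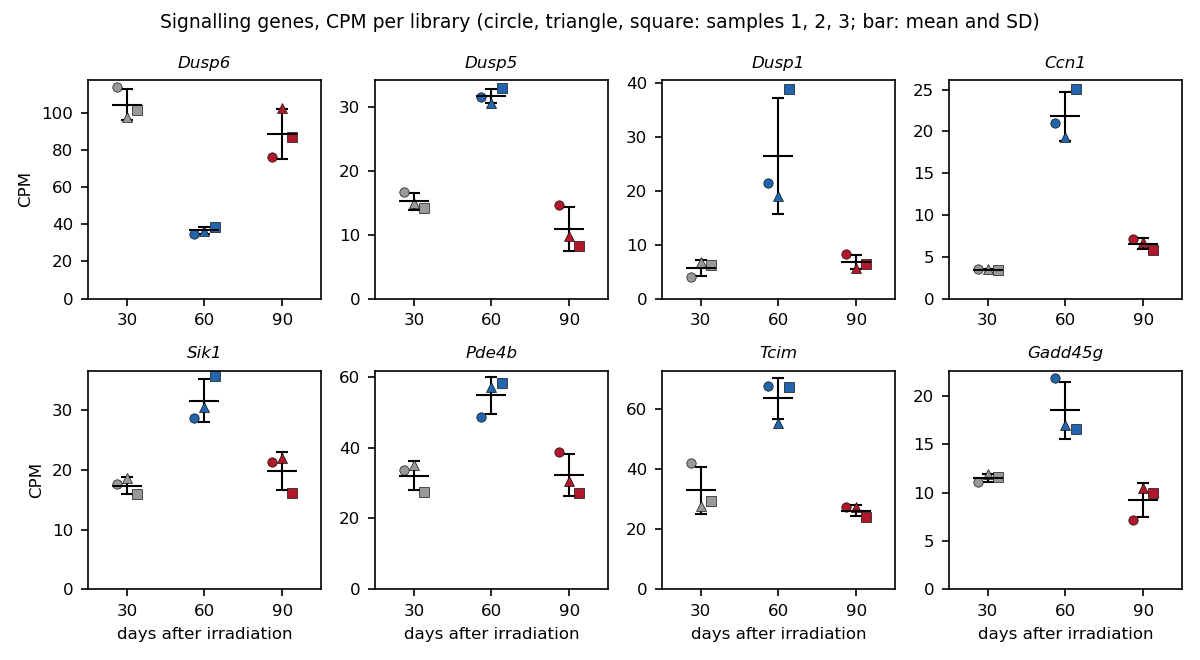
Level in CPM (vertical axes, from 0) of 8 signalling genes in each library at 30, 60 and 90 days after irradiation. Symbols are samples 1 to 3 and bars the mean with the SD. Dusp6 is low at 60 days, and the other 7 genes are higher at 60 days than at 90 days in every library.

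Of 29 immediate early genes tested, 1 fell and none rose, with a median of 0.03. The gene that fell was Sik1, a kinase induced by CREB that restrains the CREB coactivators. It measured 28.7, 30.5 and 35.7 CPM at 60 days and 21.4, 22.03 and 16.2 CPM at 90 days, without overlap, and fell by 0.67 on the log2 scale (SE 0.13, edgeR adjusted p = 0.0350). The classical early genes did not pass. Fos ran from 2.21 to 2.72 CPM at 60 days and from 2.26 to 2.72 CPM at 90 days. Egr1 ran from 6.38 to 8.82 CPM and from 9.91 to 17.7 CPM, without overlap (0.86 ± 0.52, adjusted p = 0.618), Ier5 gave 0.69 ± 0.19 (adjusted p = 0.180), Jun 0.30 ± 0.12 (adjusted p = 0.371) and Arc 0.73 ± 0.27 (adjusted p = 0.387).

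Among 18 tested genes of the cyclic AMP response, 2 fell and none rose, with a median of 0.00. Pde4b, a phosphodiesterase that breaks down cyclic AMP, measured 48.7, 57.3 and 58.4 CPM at 60 days and 38.8, 30.6 and 27.3 CPM at 90 days. It fell by 0.76 on the log2 scale (SE 0.13, edgeR adjusted p = 0.0138), and Sik1 was the other gene of the list that fell. Adcy9, a cyclase that makes cyclic AMP and was on no list, fell by 0.62 (SE 0.12, adjusted p = 0.0350), from 23.6, 24.5 and 29.3 CPM to 17.8, 14.7 and 17.8 CPM. Rgs2, an inhibitor of Gq signalling, gave 0.89 ± 0.22 (adjusted p = 0.122) without overlap. The calls of Sik1, Pde4b and Adcy9 were each lost without 90-day sample 2 (adjusted p = 0.0638, 0.0982 and 0.209), 90-day sample 3 (0.153, 0.0870 and 0.0790) and 60-day sample 2 (0.151, 0.120 and 0.125), and under library-size scaling (0.367, 0.248 and 0.358). Sik1 and Adcy9 were also lost without 60-day sample 3 (0.0607 and 0.0630) and 30-day sample 2 (0.0637 and 0.0650), and Adcy9 without 30-day sample 3 (0.0532) and 90-day sample 1 (0.0509). The fit of the 6 libraries alone gave 0.0581 for Sik1 and 0.0616 for Adcy9, and library sizes without the 10 most abundant genes gave 0.0799 and 0.0716.

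Dbp, a transcription factor of the circadian output, measured 194, 169.6 and 141 CPM at 60 days and 94.7, 87.5 and 82.8 CPM at 90 days. The groups did not overlap, and Dbp fell by 0.93 on the log2 scale (SE 0.13, edgeR adjusted p = 0.00181). Of 19 tested clock genes it was the one that passed, while 13 had negative values and the median was -0.27. The related factor Tef (-0.51 ± 0.11, adjusted p = 0.0593) and the repressor Nr1d2 (-0.46 ± 0.11, adjusted p = 0.0821) were lower without overlap. Arntl, the activator of the opposite phase, ran from 0.769 to 1.42 CPM at 60 days and from 2.23 to 4.02 CPM at 90 days (1.35 ± 0.36, adjusted p = 0.147). Per1, a clock gene that also responds to cyclic AMP and glucocorticoid, measured 96.3, 105 and 119 CPM at 60 days and 56.0, 43.4 and 19.3 CPM at 90 days (-1.42 ± 0.40, adjusted p = 0.295). The hour of harvest is not given in the labels.

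Of 17 tested glucocorticoid-induced genes, Dusp1 fell and none rose. The list median was -0.14, and 0.06 under library-size scaling, against 0.17 for the 15224 genes. Klf9 (-0.58 ± 0.13, edgeR adjusted p = 0.0640) and Tsc22d3 (-0.37 ± 0.12, adjusted p = 0.266) were lower without overlap, while the chaperone Fkbp5, also induced by glucocorticoid, was higher without overlap at 62.6 to 75.4 CPM against 46.1 to 50.7 CPM (0.53 ± 0.13, adjusted p = 0.102). Listed genes therefore lay on both sides of 0.

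In the Wnt and Notch list, 1 gene rose and 1 fell of 37 tested, with a median of 0.18. Tcim, a small regulator of Wnt and beta-catenin transcription, measured 67.9, 55.6 and 67.5 CPM at 60 days and 27.3, 27.5 and 23.9 CPM at 90 days. It fell by 1.28 on the log2 scale (SE 0.14, edgeR adjusted p = 1.43e-04), to levels beside those of 30 days (42.0, 27.6 and 29.4 CPM). Hes1, the repressor induced by Notch, rose by 0.78 ± 0.11 (adjusted p = 0.00241), from 21.6, 21.7 and 19.9 CPM to 34.7, 38.4 and 35.4 CPM. Dkk3, a secreted protein of the Dickkopf family, measured 1.63 to 3.76 CPM and then 5.37 to 6.37 CPM (1.15 ± 0.27, adjusted p = 0.0839), and the Wnt receptor Fzd1 gave 0.50 ± 0.16 (adjusted p = 0.256).

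No gene of the ErbB and FGF list (24 tested, median 0.00) or of the TGF-beta and BMP list (33 tested, median 0.06, and -0.01 without 90-day sample 2) passed the edgeR test. An unadjusted p under 0.05 was reached by 5 of the 24 and 4 of the 33, against 10.8% of all genes tested. The nearest were Fgfr2, a receptor for epithelial FGF ligands, at 45.4 to 54.0 CPM and then 28.3 to 39.3 CPM (-0.58 ± 0.17, adjusted p = 0.226), and the BMP target Id3, at 2.46 to 4.12 CPM and then 4.92 to 9.11 CPM (1.12 ± 0.26, adjusted p = 0.0821). Both had groups that did not overlap. Fgfr3 (1.02 ± 0.32, adjusted p = 0.248), Met (-0.28 ± 0.12, adjusted p = 0.427), Id4 (0.94 ± 0.26, adjusted p = 0.203) and Smad7, an inhibitor of TGF-beta signalling (0.51 ± 0.16, adjusted p = 0.241), did not pass either.

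Endothelial genes were higher at 90 days in number but mostly below the threshold. Of 30 pan-endothelial genes tested, 29 had positive values (50.1% of all genes did), the median was 0.42, and 2 rose, Sox18 and Egfl7. In bulk tissue, fewer cells of a type and less RNA per cell cannot be told apart, and this holds in either direction for every cell type list here. Their summed level was 213 to 225 CPM at 60 days and 258, 296 and 238 CPM in the 90-day samples 1, 2 and 3. Without 90-day sample 2, the median was 0.32 with 25 of 30 positive. With all libraries, the list median was -0.27 for 60 minus 30 days and 0.15 for 90 minus 30 days.

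Sox18 encodes a SoxF transcription factor of endothelial cells (chromosome 2, 181669836 to 181671640). It measured 2.68, 3.08 and 1.67 CPM at 60 days and 6.17, 8.73 and 7.83 CPM at 90 days. The groups were far apart, and Sox18 rose by 1.62 ± 0.24 (log2, SE; edgeR adjusted p = 0.00342). At 30 days it had measured 3.54, 4.399 and 5.03 CPM, and the difference of 90 from 30 days was 0.80 ± 0.24 (edgeR adjusted p = 0.0695). The other SoxF genes did not pass. Sox17 ran from 0.918 to 2.08 CPM and then from 1.51 to 3.03 CPM, with overlap (0.65 ± 0.34, adjusted p = 0.509), and Sox7 from 0.407 to 0.518 CPM and then from 0.607 to 0.859 CPM (0.70 ± 0.50, adjusted p = 0.655).

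Egfl7, a secreted protein of endothelial cells, measured 5.09, 5.20 and 4.01 CPM at 60 days and 8.46, 10.3 and 8.53 CPM at 90 days. It rose by 0.94 ± 0.18 (edgeR adjusted p = 0.0261). That call was lost without 90-day sample 2 (adjusted p = 0.199), 60-day sample 2 (0.103), 90-day sample 3 (0.0591), 60-day sample 3 (0.0546) or 30-day sample 2 (0.0513), and in the fit of the 6 libraries alone (0.0530). The junction genes of endothelium showed smaller differences. Cdh5 gave 0.26 ± 0.16 (adjusted p = 0.582), Pecam1 0.20 ± 0.13 (adjusted p = 0.598) and the VEGF receptor Kdr 0.13 ± 0.13 (adjusted p = 0.775). Clec14a (0.59 ± 0.19, adjusted p = 0.249) and the receptor tyrosine kinase Tie1 (0.45 ± 0.15, adjusted p = 0.262) did not overlap between groups.

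Of 14 arterial and Notch genes tested, Hes1 rose and 12 had positive values (median 0.34). Hes1 is also the riser of the Wnt and Notch list, so both lists count the same call. Without 90-day sample 2, 9 of the 14 were positive (median 0.26). Notch4, the endothelial Notch receptor, ran from 2.89 to 4.01 CPM and then from 5.07 to 6.08 CPM (0.68 ± 0.21, edgeR adjusted p = 0.250). The ligand Jag1 (0.39 ± 0.15, adjusted p = 0.323) and the arterial connexin gene Gja4 (1.04 ± 0.43, adjusted p = 0.382) also did not overlap. None of 16 venous, tip and lymphatic genes passed (median 0.36, 0.20 without 90-day sample 2, 3 genes at an unadjusted p under 0.05, against 10.8% of all genes). The venous factor Nr2f2 gave 0.42 ± 0.15 (adjusted p = 0.295), Aplnr 0.66 ± 0.27 (adjusted p = 0.375), Reln 0.60 ± 0.27 (adjusted p = 0.448) and the leukocyte adhesion gene Vcam1 0.54 ± 0.26 (adjusted p = 0.486).

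Adm, which encodes the vasodilator peptide adrenomedullin, was the 1 of 18 vascular growth factor genes that rose (median 0.17, 0.056 without 90-day sample 2). It measured 5.87, 4.79 and 3.96 CPM at 60 days and 9.30, 9.76 and 8.48 CPM at 90 days (0.92 ± 0.19, edgeR adjusted p = 0.0428). Leaving out 1 library ended the call in 7 of 9 cases, with adjusted p from 0.0650 without 30-day sample 3 to 0.209 without 90-day sample 2 and 0.267 without 60-day sample 2, and so did the fit of the 6 libraries alone (0.0649). Vegfa, the main endothelial growth factor, ran from 104 to 142 CPM and then from 137 to 158 CPM, with overlap (0.22 ± 0.12, adjusted p = 0.514). Thbs1, an inhibitor of vessel growth, was higher without overlap (0.67 ± 0.25, adjusted p = 0.389), and Pdgfc gave 0.33 ± 0.20 (adjusted p = 0.579). Of 10 pericyte genes none passed, with a median of 0.09 that was -0.03 without 90-day sample 2. Pdgfrb, the pericyte receptor, gave -0.31 ± 0.18 (adjusted p = 0.565), Abcc9 -0.39 ± 0.17 (0.433), Ndufa4l2 -0.55 ± 0.35 (0.605) and Cspg4 0.29 ± 0.27 (0.759).

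**Figure D3:**
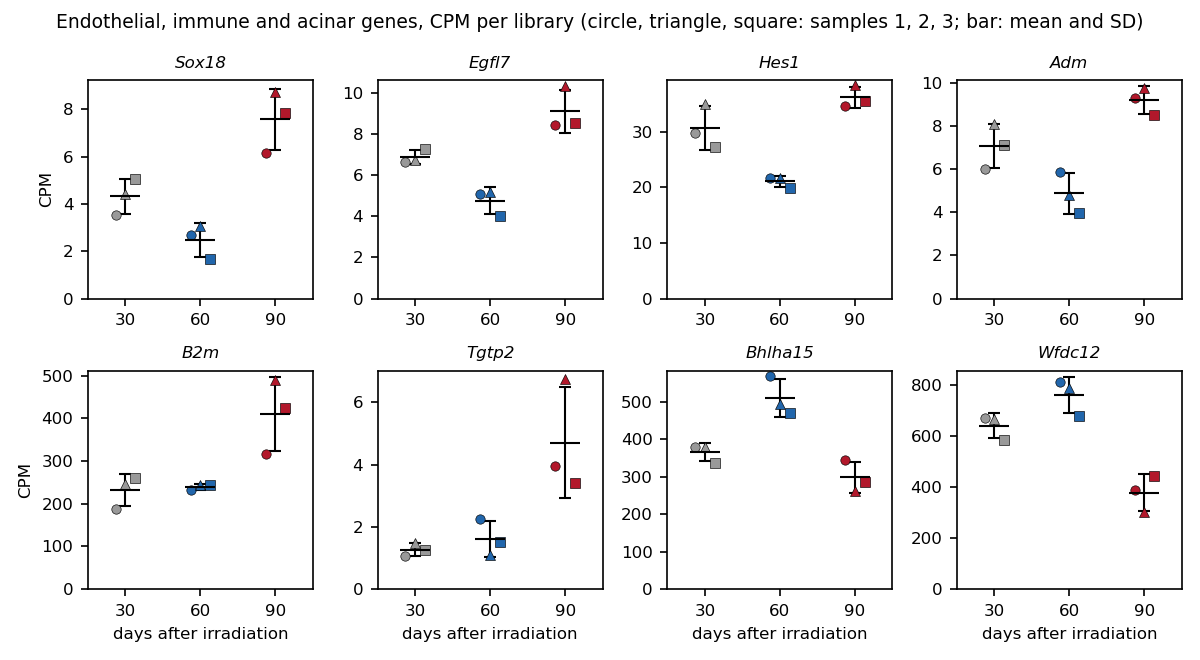
Level in CPM (vertical axes, from 0) of 4 genes of the endothelial and vascular lists, 2 immune genes and 2 acinar genes in each library at 30, 60 and 90 days. Hes1 is also on the Wnt and Notch list. Symbols are samples 1 to 3 and bars the mean with the SD. In Sox18, Egfl7, Hes1, Adm, B2m and Tgtp2 every 90-day library lies above every 60-day library, and in Bhlha15 and Wfdc12 below.

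Interferon-induced GTPases, which coat and disrupt vacuoles that hold microbes, gave 2 rises and no fall of 18 genes tested. The list median was 0.71, 16 genes had positive values, and in 13 the groups did not overlap with 90 days higher, against 8.30% of all genes. Iigp1 measured 7.55, 5.52 and 4.92 CPM at 60 days and 15.3, 14.6 and 8.53 CPM at 90 days (1.10 ± 0.22, edgeR adjusted p = 0.0359). Tgtp2 (chromosome 11, 49057194 to 49064206) measured 2.24, 1.09 and 1.502 CPM at 60 days and 3.94, 6.74 and 3.41 CPM at 90 days (1.55 ± 0.32, adjusted p = 0.0488). Both genes have relatives in the family, Tgtp1 being the close copy of Tgtp2, so the assignment of reads to them may be uncertain. Likeness of sequence was not measured. The guanylate-binding genes Gbp2 (9.80 to 12.9 and then 14.01 to 25.1 CPM, adjusted p = 0.0813) and Gbp4 (3.63 to 4.38 and then 5.67 to 8.87 CPM, adjusted p = 0.106) did not overlap and did not pass. Igtp gave 0.62 ± 0.18 (adjusted p = 0.206), with overlap.

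The 2 calls depended on single libraries and on the fit. Without 90-day sample 2, Iigp1 gave 0.99 (edgeR adjusted p = 0.209) and Tgtp2 1.18 (adjusted p = 0.342). Without 60-day sample 2, they gave 1.04 (adjusted p = 0.277) and 1.33 (adjusted p = 0.339). Leaving out 60-day sample 3, 90-day sample 1, or 30-day sample 2 or 3 also ended both calls (adjusted p from 0.0522 to 0.103), as did 90-day sample 3 for Tgtp2 (0.0510). In the fit of the 6 libraries alone, the adjusted p was 0.0726 for Iigp1 and 0.0721 for Tgtp2, and limma-voom gave 0.0517 for Tgtp2. The list median was 0.59 without 90-day sample 2.

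The windows of Tgtp2, Igtp and B2m are shown because they hold the core of the interferon-stimulated response element (ISRE), GAAA, any 2 bases and GAAA again, which STAT and IRF factors bind. The element is in capitals, and the sequences are read 5′ to 3′ on the strand of the gene from RefSeq windows on GRCm38.p6. The Tgtp2 stretch (chr11:49064247-49064312, minus strand) lies 100 to 35 bases before the start, within an intron of Olfr56 on the other strand. That of Igtp (chr11:58199492-58199555, plus strand) lies 64 to 1 bases before the start, in no other annotated gene. That of B2m (chr2:122147518-122147583, plus strand) lies 169 to 104 bases before the start, within an intron of Patl2 on the other strand.
Tgtp2: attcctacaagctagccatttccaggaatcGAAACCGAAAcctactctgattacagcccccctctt
Igtp: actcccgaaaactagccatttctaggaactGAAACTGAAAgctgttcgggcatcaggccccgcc
B2m: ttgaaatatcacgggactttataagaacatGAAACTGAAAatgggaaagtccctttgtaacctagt

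Among the tested GTPase genes, 11 had a window, and 10 of these (90.9%) held the ISRE core, against 3.46% of all 27025 genes and 3.44% of the tested genes with a window. The gamma-activated site (GAS), TTCNNNGAA, was in 7 of the 11 (63.6%) and in 8.13% of all genes. Among the MHC class I presentation genes, 3 of 17 windows (17.6%) held the ISRE core. Of the 14 genes higher at 90 days, 9 had a window, and Tgtp2, B2m and Pnrc1 held the ISRE core. None of the 20 windows among the 25 lower genes held it. The GTPase genes are a family of known interferon targets, so the share describes the family and not the change at 90 days.

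MHC class I presentation gave 1 rise of 20 tested (median 0.32, 18 positive). Sample 2 was the highest 90-day library in 19 of the 20 genes, and the median was 0.17 without it. B2m, the light chain of every class I molecule (chromosome 2, 122147686 to 122153083), measured 231, 243 and 244 CPM at 60 days and 317, 489 and 424 CPM at 90 days. It rose by 0.77 ± 0.15 (edgeR adjusted p = 0.0303), without overlap. The call was lost without 90-day sample 2 (0.62, adjusted p = 0.190) or 3 (adjusted p = 0.116), 60-day sample 1 (0.131) or 2 (0.198), or 30-day sample 2 (0.0673). The heavy chain genes did not overlap and did not pass. H2-Q4 gave 0.67 ± 0.14 (adjusted p = 0.0587), H2-Q7 1.06 ± 0.23 (0.142) and H2-K1 0.60 ± 0.16 (0.150), and these genes share reads with close copies.

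None of 10 MHC class II genes passed, although all 10 had positive values (median 0.63) and 5 an unadjusted p under 0.05 (10.8% of all genes did). H2-Aa, the class II alpha chain, measured 92.7, 90.7 and 88.7 CPM at 60 days and 109, 187 and 116 CPM at 90 days (0.60 ± 0.21, edgeR adjusted p = 0.327). The invariant chain gene Cd74 ran from 259 to 296 CPM and then from 292 to 533 CPM, with overlap (0.50 ± 0.22, adjusted p = 0.459). Ciita, the master regulator of class II, gave 0.83 ± 0.33 (adjusted p = 0.375) and H2-Eb1 0.64 ± 0.25 (adjusted p = 0.409). Sample 2 was the highest 90-day library in 10 of the 10 genes, and without it the list median was 0.30.

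Other interferon-stimulated genes gave no call of 30 tested, with 28 positive, a median of 0.44 and 9 genes at an unadjusted p under 0.05 (10.8% of all genes). Zbp1, a sensor of Z-form nucleic acid, ran from 1.58 to 3.25 CPM and then from 4.52 to 7.22 CPM (1.42 ± 0.31, edgeR adjusted p = 0.0669). Oasl2 (0.65 ± 0.21, adjusted p = 0.301), Oas3 (1.31 ± 0.45, 0.301) and Xaf1 (0.58 ± 0.19, 0.276) did not pass. Sample 2 was the highest 90-day library in 27 of the 30 genes, and the median was 0.21 without it.

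Of 22 tested T and NK cell genes, 19 had positive values and none passed (median 0.77, 8 at an unadjusted p under 0.05, against 10.8% of all genes). Cd3e, a chain of the T cell receptor complex, was near the level of 3 counts at 60 days, at 0.173, 0.271 and 0.209 CPM, and measured 0.539, 1.07 and 1.15 CPM at 90 days (2.04 ± 0.58, edgeR adjusted p = 0.184). Cd3g (2.02 ± 0.72, adjusted p = 0.305) and Trbc1 (1.15 ± 0.42, 0.319) did not overlap, while Lck, the proximal kinase of the receptor (1.42 ± 0.44, 0.248), Klrk1 (0.47 ± 0.26, 0.541) and Ccl5 (0.91 ± 0.36, 0.377) overlapped. Sample 2 was the highest 90-day library in 19 of the 22, and the median was 0.37 without it.

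B and plasma cell genes had the largest list median, 2.29 over 10 tested genes, all positive, and none passed (8 at an unadjusted p under 0.05, against 10.8% of all genes). The median was 1.33 without 90-day sample 2. Igha, the heavy chain of IgA, measured 30.5, 22.2 and 24.3 CPM at 60 days and 65.1, 58.7 and 64.7 CPM at 90 days. Its 90-day values were all above the 60-day values and close to each other (1.29 ± 0.31, edgeR adjusted p = 0.219). Ighm, the heavy chain of IgM, rested on 1 library, at 5.70 to 8.76 CPM at 60 days and 9.10, 191 and 15.5 CPM at 90 days. Igkc, the kappa light chain, measured 16.1 to 18.9 CPM and then 43.3, 204 and 42.8 CPM (2.5 ± 0.75, adjusted p = 0.327), and Jchain, which joins IgA and IgM units, 4.34 to 5.42 CPM and then 13.05, 52.6 and 16.9 CPM (2.46 ± 0.63, adjusted p = 0.275). Ighg2b was under the level of 3 counts in every 60-day library and measured 0.573, 44.3 and 1.15 CPM at 90 days.

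Macrophage and complement C1q genes gave no call of 22 tested (median 0.39, 0.13 without 90-day sample 2, 5 at an unadjusted p under 0.05, against 10.8% of all genes). C1qa, a chain of the first complement component, ran from 28 to 41.6 CPM and then from 32.2 to 61.9 CPM, with overlap (0.46 ± 0.37, edgeR adjusted p = 0.729). The common leukocyte gene Ptprc gave 0.67 ± 0.23 (adjusted p = 0.320), Fcgr3 0.59 ± 0.21 (0.319), Aif1 0.73 ± 0.29 (0.371) and Laptm5 0.37 ± 0.16 (0.442), all with overlap. All 11 dendritic cell genes had positive values and none passed (median 0.48, 0.36 without 90-day sample 2, 2 at an unadjusted p under 0.05, against 10.8% of all genes). Irf8, a factor of dendritic cell development, gave 0.38 ± 0.14 (adjusted p = 0.305), Clec10a 0.58 ± 0.32 (0.534), Ccr7 0.78 ± 0.44 (0.549) and Siglech 0.48 ± 0.36 (0.679). Of 33 chemokine and receptor genes none passed (median 0.38, 0.19 without 90-day sample 2, 8 at an unadjusted p under 0.05, against 10.8% of all genes). Ccr2, a chemokine receptor of monocytes, gave 0.57 ± 0.18 (adjusted p = 0.255), and Ccl8 measured 0.769 to 1.38 CPM and then 1.79, 7.46 and 3.06 CPM (2.05 ± 0.60, 0.258).

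**Figure D4:**
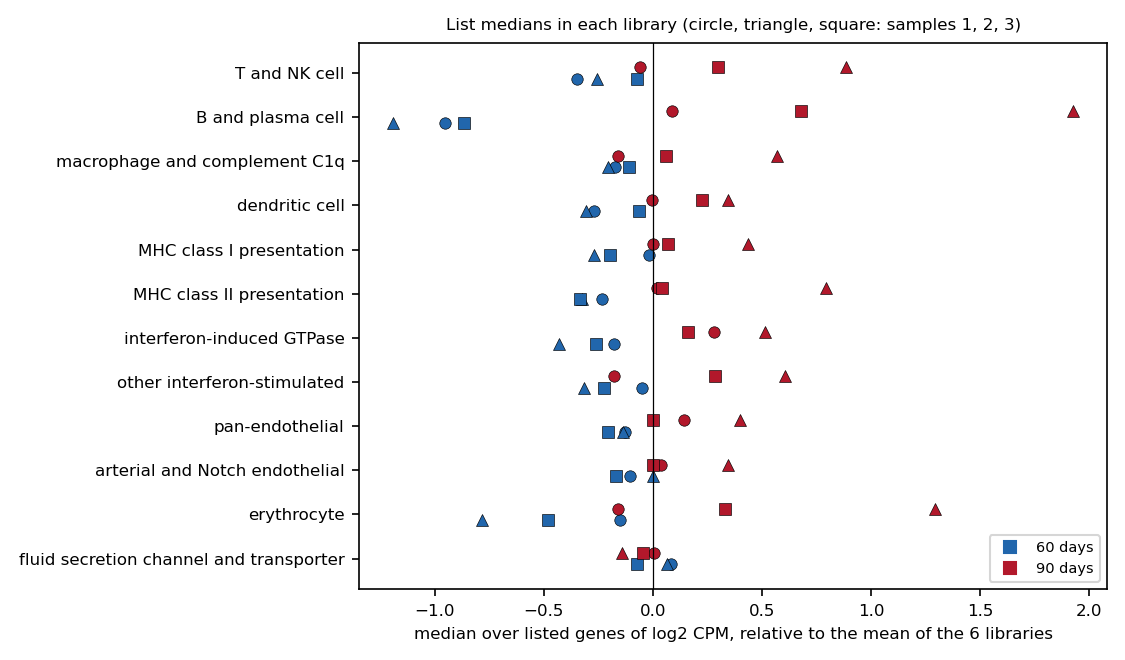
Median over the tested genes of a list of log2 CPM in each library relative to the mean of the 6 libraries (horizontal axis) for 12 lists (vertical axis), with 60 days in blue and 90 days in red and symbols for samples 1 to 3. The triangle of the 90-day sample 2 lies farthest right in the immune, endothelial and erythrocyte lists, and farthest left in the fluid secretion list.

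Acinar genes gave 2 falls and no rise across their 5 lists. Bhlha15 (chromosome 5, 144190286 to 144194441) measured 567, 495 and 469.8 CPM at 60 days and 344, 262 and 287 CPM at 90 days. All 90-day values were below all 60-day values, and Bhlha15 fell by 0.78 on the log2 scale (SE 0.12, edgeR adjusted p = 0.00581). The call was lost without 90-day sample 2 (-0.70, adjusted p = 0.0620) and under library-size scaling (-0.60, adjusted p = 0.130). At 30 days the gene had measured 379.7, 378 and 338 CPM, with a mean between those of the other time points. The 30-day and 90-day values overlapped, and the difference of 90 from 30 days was -0.29 (edgeR adjusted p = 0.230). Of 21 acinar transcription factors tested it was the one that fell, and the list median was -0.01.

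The other acinar regulators did not pass. Atf6, the sensor of unfolded protein that drives chaperone genes, ran from 71.4 to 86.7 CPM and then from 54.0 to 57.5 CPM (-0.48 ± 0.10, edgeR adjusted p = 0.0511). Xbp1, the secretory cell factor often named beside Bhlha15, ran from 310.1 to 386 CPM and then from 338 to 372 CPM (-0.01 ± 0.12, adjusted p = 0.986), with a positive sign under library-size scaling (0.17). Creb3l2 gave -0.26 ± 0.11 (adjusted p = 0.377) and Spdef -0.24 ± 0.11 (adjusted p = 0.435).

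Wfdc12, a secreted protein with a whey acidic protein domain, was the 1 of 25 secretory product genes that fell. It measured 810.4, 787 and 679 CPM at 60 days and 386, 300.4 and 444 CPM at 90 days, without overlap, and fell by 1.01 on the log2 scale (SE 0.14, edgeR adjusted p = 0.00167). Pip, an abundant saliva protein, ran from 11705 to 15483 CPM and then from 6045 to 9692 CPM (-0.89 ± 0.19, adjusted p = 0.0587). Lpo, the salivary peroxidase, gave -0.64 ± 0.16 (adjusted p = 0.122). Pigr, the receptor that carries IgA into saliva, was higher without overlap, at 173 to 236 CPM and then 279 to 333 CPM (0.50 ± 0.13, adjusted p = 0.149). Mucl2, the most abundant product, measured 391811, 443994 and 296962 CPM and then 296240, 264698 and 395114 CPM, with overlap (-0.24 ± 0.26, adjusted p = 0.801). The list median was -0.14, and 0.03 under library-size scaling.

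No channel or transporter of fluid secretion passed of 19 tested (2 at an unadjusted p under 0.05, against 10.8% of all genes). Their median was -0.10, with 5 positive, -0.063 without 90-day sample 2, and 0.07 under library-size scaling, with 13 positive, which is below the 0.17 of all genes. Ano1, the calcium-gated chloride channel, ran from 128 to 156 CPM and then from 95.6 to 122 CPM (-0.38 ± 0.11, edgeR adjusted p = 0.217). Slc12a2, the chloride importer, gave -0.32 ± 0.15 (adjusted p = 0.454). Aqp5, the acinar water channel, measured 400.1, 309 and 329 CPM and then 329, 301 and 338 CPM (-0.10 ± 0.12, adjusted p = 0.824), with a positive sign under library-size scaling (0.07), and Lrrc26 gave -0.19 ± 0.14 (adjusted p = 0.655).

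Among 39 tested receptors and calcium genes of secretion none passed (median -0.07, 0.12 under library-size scaling, 5 at an unadjusted p under 0.05). Over all genes tested, 10.8% lay under that p. Chrm3, the main muscarinic receptor of the gland, ran from 25.6 to 30.5 CPM and then from 21.4 to 24.9 CPM, without overlap (-0.27 ± 0.12, edgeR adjusted p = 0.425). Chrm1 gave 0.23 ± 0.18 (adjusted p = 0.698). Adra1a, an adrenergic receptor, was lower without overlap (-0.31 ± 0.11, adjusted p = 0.314). The calcium release channel gene Itpr3 gave -0.05 ± 0.12 (adjusted p = 0.916) and the calcium pump gene Atp2a2 -0.12 ± 0.10 (0.716), both positive under library-size scaling (0.12 and 0.04). Plcb4 gave -0.33 ± 0.13 (0.351) and Micu3, a regulator of mitochondrial calcium uptake, 0.83 ± 0.26 (0.248).

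Itpkb, which converts the calcium-releasing messenger IP3 to IP4 and was on no list, measured 124, 123.2 and 112 CPM at 60 days and 80.9, 81.4 and 80.4 CPM at 90 days. It fell by 0.57 on the log2 scale (SE 0.09, edgeR adjusted p = 0.00860). The call was lost without 60-day sample 2 (adjusted p = 0.0855) or 90-day sample 2 (0.0552) and under library-size scaling (0.358). Camkk1, a kinase activated by calcium and calmodulin, fell by 0.80 (SE 0.14, adjusted p = 0.0181), from 40.0, 33.8 and 31.0 CPM to 23.1, 17.98 and 19.3 CPM. Without 60-day sample 1 or 2 or 90-day sample 2 or 3 the adjusted p was 0.0704, 0.0928, 0.127 and 0.0893, and under library-size scaling it was 0.225. No gene of endoplasmic reticulum folding and stress passed of 38 tested (median 0.03, 4 at an unadjusted p under 0.05, against 10.8% of all genes). Creld2 (0.36 ± 0.13, adjusted p = 0.305), Pdia4 (0.38 ± 0.15, 0.375) and Sdf2l1 (0.42 ± 0.18, 0.446) overlapped, and Derl3 (-0.23 ± 0.11, 0.451) was lower without overlap.

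**Figure D5:**
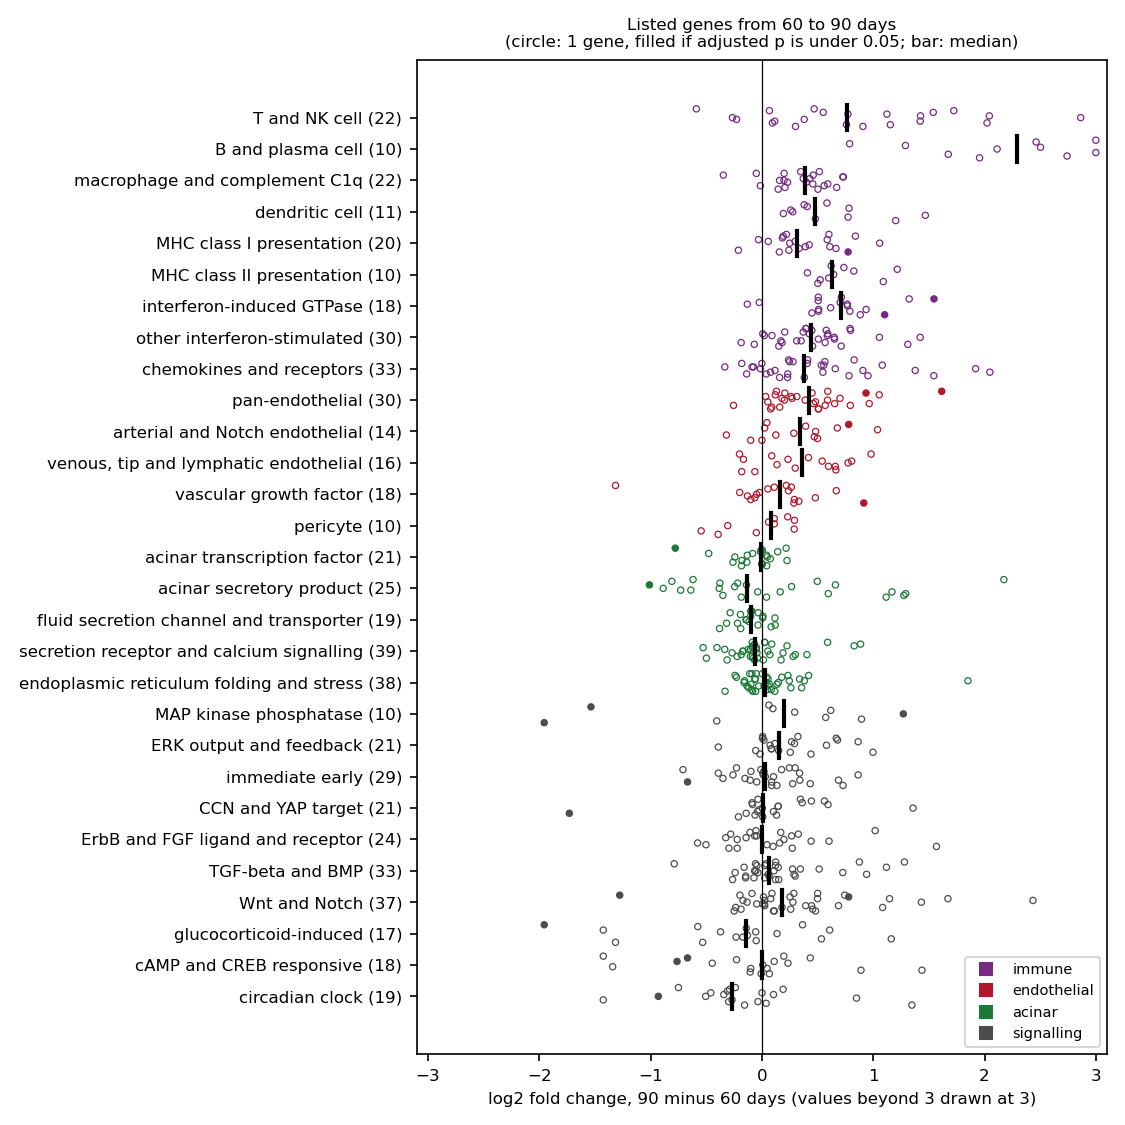
Log2 fold change from 60 to 90 days (horizontal axis) of the tested genes in 29 lists (vertical axis, number tested in brackets), coloured by theme. Filled circles passed the test and black bars are medians. The bars of the immune lists lie right of 0, those of the fluid secretion and clock lists left of it, and in the MAP kinase phosphatase list filled circles lie on both sides.

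Of the 39 genes, 22 lay on no list. Dtna, which encodes alpha-dystrobrevin of the dystrophin complex, measured 28.1, 31.6 and 21.9 CPM at 60 days and 12.6, 9.07 and 9.24 CPM at 90 days and fell by 1.39 on the log2 scale (SE 0.17, edgeR adjusted p = 0.0015). Hs3st1, a heparan sulfate sulfotransferase, measured 24.9, 23.2 and 18.9 CPM and then 11.4, 8.52 and 8.48 CPM and fell by 1.23 (SE 0.17, adjusted p = 0.00167). Gadd45g, a stress protein that activates p38 and JNK, measured 21.9, 17 and 16.6 CPM and then 7.18, 10.5 and 9.99 CPM and fell by 1.01 (SE 0.16, adjusted p = 0.00516). In these 3 genes the groups did not overlap. Dtna and Hs3st1 kept their calls under all 18 alternatives, and Gadd45g lost its call under library-size scaling alone (adjusted p = 0.0948).

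Of the rising genes on no list, Mup5, of the major urinary protein family, was the most abundant. It measured 900.5, 918 and 1123 CPM at 60 days and 1956, 2927 and 1699 CPM at 90 days (1.16 ± 0.17, edgeR adjusted p = 0.00313), after 236 to 262 CPM at 30 days. The family holds near-identical copies, so its count is uncertain. Wsb1, a subunit of a ubiquitin ligase, rose by 0.70 ± 0.12 (adjusted p = 0.0132; 0.0872 without 90-day sample 3). Tmem176a (0.82 ± 0.14, adjusted p = 0.0132), the exocrine gland peptide gene Esp8 (0.77 ± 0.14, 0.0181) and the nuclear receptor coactivator gene Pnrc1 (0.57 ± 0.11, 0.0261) also rose, and without 90-day sample 2 their adjusted p was 0.0901, 0.104 and 0.152. Other single libraries ended these 3 calls too, with adjusted p up to 0.138, and Pnrc1 gave 0.0581 in the fit of the 6 libraries alone.

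The remaining genes that fell on no list included several of energy metabolism. Acss1, the mitochondrial acetyl-CoA synthetase, fell by 0.54 (SE 0.11, edgeR adjusted p = 0.0428), from 286, 266 and 225 CPM to 179.9, 169.6 and 186 CPM. Slc25a25, a mitochondrial carrier of ATP-magnesium, fell by 0.65 (SE 0.13, adjusted p = 0.0350), Ppp1r3b, a glycogen-targeting phosphatase subunit, by 0.55 (SE 0.11, 0.0499), Dcxr, a xylulose reductase, by 0.64 (SE 0.12, 0.0261) and Ulk1, the kinase that starts autophagy, by 0.44 (SE 0.09, 0.0428). No list of metabolic genes was tested, so no theme is drawn from them. The sorting receptor gene Sorl1 fell by 0.55 (SE 0.10, 0.0176), the orphan receptor gene Gprc5b by 0.55 (SE 0.11, 0.0391) and the sphingosine-1-phosphate exporter gene Spns2 by 0.69 (SE 0.12, 0.0132).

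Lcp1, the actin bundler of leukocytes, fell by 0.57 on the log2 scale (SE 0.11, edgeR adjusted p = 0.0298), while leukocyte lists had positive medians. It measured 209, 213 and 222 CPM at 60 days and 146, 146 and 142 CPM at 90 days, after 307, 273 and 236 CPM at 30 days. The noncoding gene 2310043O21Rik measured 1.21, 0.814 and 0.751 CPM at 60 days and lay at or near the level of 3 counts at 90 days, at 0.101, 0 and 0.151 CPM (adjusted p = 0.0488). Without 90-day sample 2, the adjusted p was 0.131 for Lcp1, 0.237 for 2310043O21Rik, and between 0.101 and 0.242 for Acss1, Slc25a25, Ppp1r3b, Dcxr, Ulk1, Sorl1, Gprc5b and Spns2. For each of these 10 genes, leaving out 60-day sample 2 or 90-day sample 3 or other libraries ended the call as well, with adjusted p up to 0.277. Under library-size scaling all 10 calls were lost, with adjusted p from 0.0684 for 2310043O21Rik and 0.225 for Spns2 to 0.436 for Ppp1r3b and 0.554 for Ulk1. In the fit of the 6 libraries alone, the calls of Acss1, Slc25a25, Ppp1r3b, Ulk1, Gprc5b and 2310043O21Rik were lost (adjusted p from 0.0530 to 0.0775).

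The 30-day libraries give the level before the step. The comparison of 60 with 30 days shares the 60-day libraries with that of 90 with 60 days, so opposite signs are favoured and are given only as values. Of the 14 genes that rose, 9 had a mean at 30 days above that at 60 days, and of the 25 that fell, 17 had a mean at 30 days below it. Between 90 and 30 days, 19 of the 39 genes passed the edgeR test at an adjusted p under 0.05, among them Mup5 (3.16, adjusted p = 1.87e-08), Dbp (-1.05, 2.27e-04), Dtna (-1.59, 1.84e-04) and B2m (0.82, 0.00420). Dusp6, Dusp5, Dusp1, Tcim, Hs3st1, Pde4b and Sik1 did not pass between 90 and 30 days (adjusted p from 0.143 to 0.980) and had passed between 60 and 30 days. Sox18, Egfl7, Hes1 and Adm did not pass between 90 and 30 days either (edgeR adjusted p = 0.0695, 0.252, 0.287 and 0.318). Among these, Hes1 had passed between 60 and 30 days (adjusted p = 0.0211).

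Markers of other cell types gave no call. Duct genes had a median of 0.08 over 21 tested, basal cell genes 0.22 over 9, myoepithelial and smooth muscle genes 0.17 over 12, and fibroblast and collagen genes 0.11 over 22. Without 90-day sample 2 these medians were 0.0082, 0.053, 0.047 and 0.032. The 12 nerve and Schwann cell genes had a median of 0.42 and the 6 erythrocyte genes 1.06, or 0.21 and 0.52 without 90-day sample 2. Neutrophil and mast cell, adipocyte, skeletal muscle, sublingual and lymph node lists kept 2 to 5 genes each after the filter, with S100a8, Elane, Ucp1, Myh4 and Tff2 at 0 in the 9 libraries. Their part in the results was not tested.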

How the data were processed

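Total RNA from 4 sections of 50 µm per submandibular gland went into libraries with a SMARTER mRNA-seq kit, per the labels' protocols. The authors deposited raw read counts per Ensembl gene, made with fastp, STAR, featureCounts and build mm10, per the submitters' processing notes; versions, strand setting and annotation are not given in the sources used here. A further 3 count columns match no sample listed and were not used. Symbols were found for 54409 of 54532 identifiers, and positions come from GENCODE M21 (GRCm38).

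Genes were filtered with filterByExpr (minimum count 10), which left 15224. Counts were scaled with TMM, and all 9 libraries were fitted with a term for time point and 6 residual degrees of freedom in edgeR 4.0.16 (R 4.3.3, limma 3.58.1, DESeq2 1.42.0 for alternatives). Dispersions were estimated robustly. Every adjusted p of the main fit is from the quasi-likelihood test, adjusted by Benjamini-Hochberg across the 15224 genes, with 0.05 as the threshold. Each alternative was adjusted over the genes it kept, and limma-voom and DESeq2 used their own tests. The scripts were tested on simulated data. Named, apart from a few genes not reported here, were all genes past the threshold, up to 4 genes of a list with the smallest p and at least 1 CPM, and genes fixed by name; Ighm and Dusp8 were added after their values were seen, and tissue markers are named without values. The members and 40 lists were chosen with earlier results of these data known. Floors of 3 counts cover counting error only. Alternatives were other scalings, DESeq2, limma-voom, other filters, the 6 libraries alone, leaving out each library, and a replicate block. Figures used matplotlib 3.10.9.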

Additional observations from a re-analysis of the deposited data

How the results depend on the processing

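The 39 calls (14 higher, 25 lower) were 41 with DESeq2-type size factors, 47 with limma-voom and 36 without the 10 most abundant genes in the totals. DESeq2 gave 141 (54 higher, 87 lower), no low-count filter 354 (195 and 159), and requiring a log2 change of 1 or more in size gave 14 (5 and 9). Library-size scaling gave 28, 19 higher and 9 lower. Leaving out 1 library gave 16 to 103 calls, 7 to 33 higher and 9 to 70 lower. The lowest counts were without 90-day sample 2 (16) and 60-day sample 2 (19), the highest without 60-day sample 3 (103) and 30-day sample 1 (87). The cause was not tested.

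The replicate block gave 92 calls (38 higher, 54 lower), all 39 among them. Equal sample numbers at 60 and 90 days correlated at 0.01, -0.06 and 0.06 in their deviations. These values cannot show whether equal numbers share an animal or a step of handling, and the labels do not say.

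Of the 39 genes, 12 were called under all 18 alternatives run on single genes, among them Ccn1, Dusp6, Dusp5, Tcim, Dtna, Wfdc12, Hs3st1, Dbp, Hes1, Mup5 and Sox18. The calls kept were 38 with DESeq2, 37 with limma-voom, 26 in the fit of the 6 libraries alone and 21 with library-size scaling. The signs that turned belonged to uncalled genes. By library size they were Xbp1 (0.17, and 0.024 without the 10 most abundant genes), Atp2a2 (0.045), Itpr3 (0.12) and Aqp5 (0.069). Leaving out 1 library gave -0.108 to 0.0523 for Xbp1, -0.0531 to 0.102 for Fos, -0.138 to 0.0033 for Itpr3 and -0.179 to 0.0124 for Aqp5. At 3 libraries a group, detection by expression level was not tested.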
